A study of Mus musculus with 9 samples.

Results

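The left ventricle of mice banded at postnatal day 7 was compared with that of sham-operated mice, at postnatal day 14 in both. In transverse aortic constriction (TAC) a ligature around the aortic arch makes the left ventricle pump against a raised pressure. The study also banded mice at postnatal day 1, and the comparison described here took 6 of its 9 libraries: the 3 with TAC at day 7 (day-7 TAC) and the 3 with sham surgery. All mice were of the outbred ICR/CD1 strain, and the labels name no transgene or drug in any group. The labels give no day of surgery for the sham mice, so the groups match in age at harvest but are not known to match in age at surgery. Nothing in them says that libraries of a group came from separate animals, and the p-values then reflect only how these libraries vary. Genes were chosen by 1 rule, that the symbol stands on a single row of the expression table. This held for 16698 genes, of which 13712 lay above 0 on the log2 scale in at least 3 of the 9 libraries and were tested.

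A ventricle under raised pressure thickens, because its muscle cells enlarge by making more ribosomes, more contractile protein and more cytoskeleton. The heart of a mouse at this age is also leaving its fetal state: most muscle cells stop dividing, fat replaces glucose as the main fuel, and adult forms of contractile and channel proteins take over from fetal ones. Pressure load is known to bring back part of the fetal programme, of which the natriuretic peptides, skeletal alpha-actin and beta-myosin are the usual markers. The genes described below lie mostly outside that set.

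Values are the deposited log2 values, scaled between libraries but not divided by gene length, so that they compare libraries for 1 gene and not genes with each other. Fold changes are differences of group means on this scale (day-7 TAC minus sham) with the standard error (SE) of the limma fit, n = 3 libraries per group. In bulk tissue, fewer cells of a type and less RNA per cell cannot be told apart. A gene is said to rise or fall where its Benjamini-Hochberg adjusted p was under 0.05. A gene was tested where its value was above 0 in at least 3 of the 9 libraries. One at or below 0 in all sham libraries could enter only through the banded ones, of day 7 or day 1. A rise in such a gene was favoured by how it entered and is not taken as support. Such risen members are named or counted beside the lists that hold them. Of the genes tested 28.9% passed, 1889 higher (13.8%) and 2073 lower (15.1%), with a median over all genes of -0.01. The deposited values had the same median in all 6 libraries (3.7526), so a median change near 0 follows largely from the scaling. The split depended on the scaling: rises made up 47.7% of the calls on the deposited values and 59.7% with every library set to an equal total. Direction in the alternative fits was checked for the genes named by rule and the preset key genes only. No called gene among these changed direction in any alternative fit. Recovered depth was 19351249 to 26521005 reads per library, and libraries of a group correlated with r of 0.985 to 0.990 across genes. Below, S1, S2 and S3 are the sham libraries and T1, T2 and T3 the day-7 TAC libraries, with S2 and S3 numbered by column order only. The count of higher genes fell to 1178 without T2, and a list count is given without a library where leaving it out moved the count by more than 1.5 times. S1 stood apart in haemoglobin, with Hba-a1 at 9.89 against 8.28 and 7.99 in S2 and S3.

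**Figure D1:**
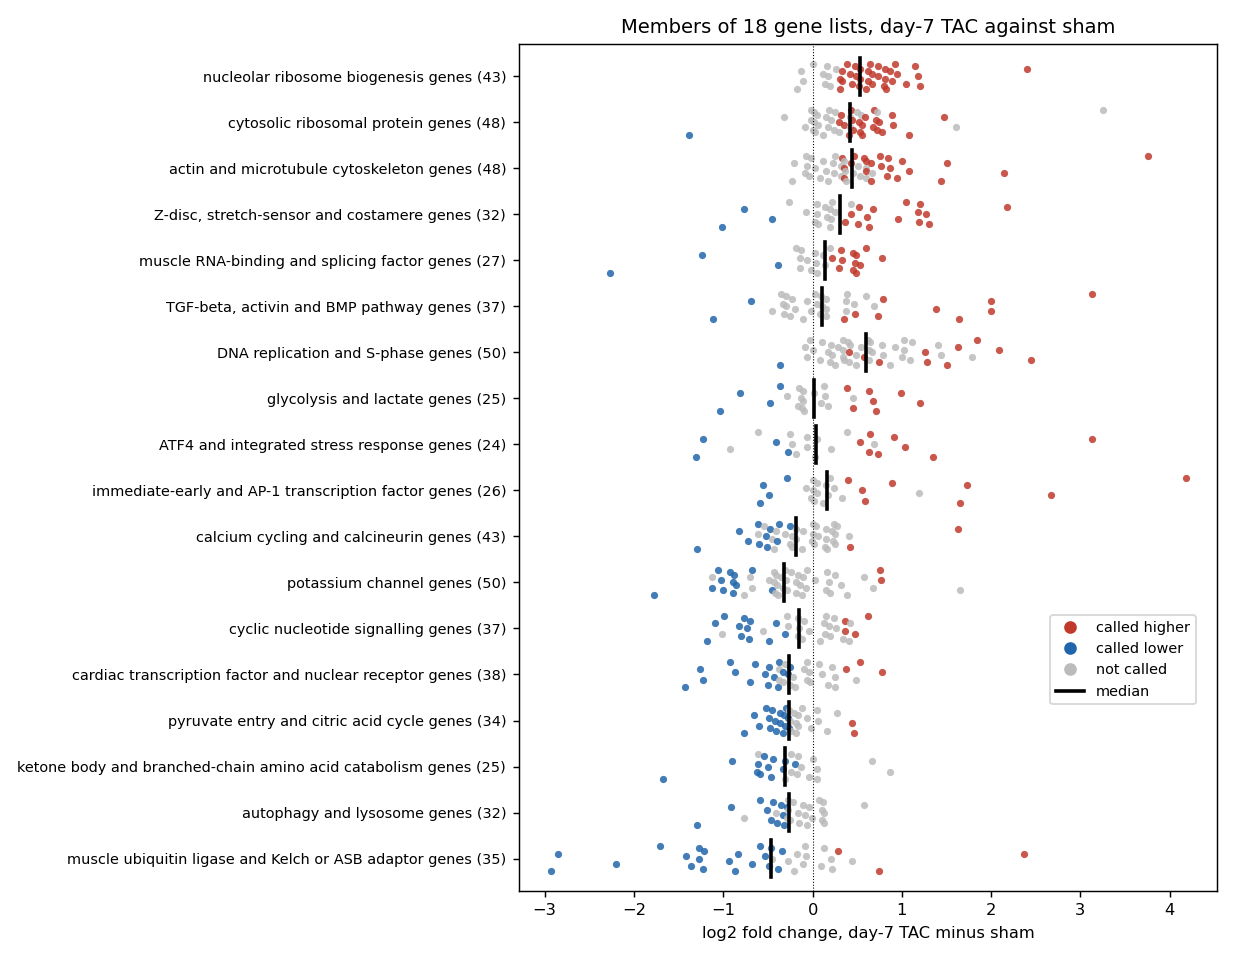
Log2 fold change (horizontal axis, day-7 TAC minus sham) of every tested member of 18 gene lists, with the number of tested members in brackets after each list name. Red points were called higher, blue lower and grey neither, and the black bar is the median of the list. The median of ribosome biogenesis genes stands at 0.53 and that of muscle ubiquitin ligase and adaptor genes at -0.47.

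Most genes that build the ribosome in the nucleolus rose. Of 43 tested members 33 rose and none fell, with a median log2 fold change of 0.53, against 28.9% called among all genes. The count stayed between 28 and 32 when each of the 6 libraries was left out in turn. Rrp12, which serves in the maturation and export of both ribosomal subunits, stood at 3.64, 3.75 and 3.72 in the sham libraries and at 6.40, 6.09 and 5.81 with day-7 TAC. The groups lay far apart, a 5.27-fold rise (2.40, SE 0.13, adjusted p = 1.18e-05). The gene lies on chromosome 19 from 41862851 to 41896173 (GRCm38, GENCODE M21). Gnl3, which encodes the nucleolar GTPase nucleostemin, went from 5.21, 5.17 and 5.24 to 6.49, 6.34 and 6.32, a rise of 1.18 (SE 0.08, adjusted p = 4.49e-05). The ribosomal RNA methyltransferase gene Nop2 went from 4.05, 4.2 and 4.29 to 5.54, 5.26 and 5.17. In each of these genes every banded library lay above every sham library. Ppan (1.20), Nolc1 (1.04), the box C/D particle gene Nop56 (0.95) and the helicase gene Ddx21 (0.73) rose as well. Among members that did not pass were Ncl, which encodes nucleolin (0.18), Npm1 (0.26), and Polr1a (-0.13), the catalytic subunit of RNA polymerase I.

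Promoters of the risen members were searched for CACGTG, the E-box that MYC and the clock factors bind. The window ran from 250 bases before to 50 after the RefSeq start, on both strands. It was found in 7 of the 29 risen members with a RefSeq promoter (24.1%) and in 11.5% of the 10368 tested genes with one. It lay before the start in Nop2 (-60) and Rrn3 (-215 and -48), and after it in Tsr1, Ltv1, Utp20, Wdr43 and Mybbp1a. The 2 promoters with the match before the start are shown, 100 bases each on the gene's own strand, build GRCm38.p6, the match in capitals. That of Nop2 spans chr6:125131776-125131875 on the plus strand and that of Rrn3, which encodes an initiation factor of RNA polymerase I, chr16:13780449-13780548 on the plus strand.
Nop2: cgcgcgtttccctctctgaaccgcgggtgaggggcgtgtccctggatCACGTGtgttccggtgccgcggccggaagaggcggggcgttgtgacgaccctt
Rrn3: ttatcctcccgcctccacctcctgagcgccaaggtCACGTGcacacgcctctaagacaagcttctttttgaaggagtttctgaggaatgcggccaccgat
In both windows the match stands once. Myc itself was at -0.02 and did not pass. In all, 8 motifs were searched, and the sites shown here and under replication were chosen after their shares were known.

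Genes of the cytosolic ribosomal proteins rose in 22 of 48 (median 0.42), and 1 fell, 47.9% called against 28.9% of all genes. These genes have many near-identical processed copies in the genome, so their reads are uncertain. The member that fell was Rpl3l, the striated muscle form of ribosomal protein L3, from 7.50, 7.32 and 6.96 to 6.25, 5.63 and 5.76 (-1.38, SE 0.21, adjusted p = 0.00132). Its ubiquitous counterpart Rpl3 moved the other way, from 1.98, 2.20 and 2.08 to 3.86, 3.34 and 3.47 (1.47, SE 0.15, adjusted p = 0.000208). Neither gene overlapped between the groups. Rpl10a rose by 1.08 and Rps13 by 0.90. The count of risen members was 14 without S2, 14 without S3 and 13 without T2, and the count of fallen members was 2 without T3. Mitochondrial ribosomal protein genes rose in 15 and fell in 3 of 75, led by Mrpl19 (0.75) and Mrps18b (0.76). That share is below the 28.9% of all genes, and 8, 9 and 7 members rose without S2, T1 and T2, while 1 fell without T1 or T3.

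Amino acid carriers of the plasma membrane were among the risen genes. Slc7a5, the light chain of the LAT1 carrier for large neutral amino acids, went from 2.17, 2.14 and 2.16 to 3.65, 3.56 and 3.30, a 2.54-fold rise (1.35, SE 0.15, adjusted p = 0.000274). Its heavy chain gene Slc3a2 rose by 0.73. The neutral amino acid exchanger gene Slc1a4 went from 1.48, 2.14 and 2.62 to 4.02, 3.89 and 3.78 (1.82, SE 0.23), and the glutamine carrier gene Slc38a1 rose by 0.93. Of 31 carrier genes tested 6 rose and 4 fell, 32.3% called against 28.9% of all genes. Among the fallen were the proton-coupled carrier gene Slc36a2 (-1.74) and Slc38a9 (-0.62), a lysosomal arginine sensor. Slc7a6os, matched by its symbol, is counted with the list but is no carrier.

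ATF4 is the transcription factor through which cells answer a lack of amino acids and other stresses. Atf4 stood at 7.18, 6.89 and 7.00 in sham and at 7.78, 7.69 and 7.55 with day-7 TAC (0.65, SE 0.09, adjusted p = 0.000987). In its list of 24 tested genes 8 rose and 4 fell, 50% called against 28.9% of all genes. Among the 8, Gdf15 was at or below 0 in all sham libraries. Others were Ppp1r15a (1.04), which restarts translation after stress, the proline synthesis gene Pycr1 (0.92) and Ddit3 (0.53). The 4 that fell were Stc2 (-1.23), Chac1 (-1.31), Psph (-0.41) and Vldlr (-0.28, with no call in 6 of the 8 other settings), and their number was 1, 2, 1 and 2 without S1, S2, T1 and T3. Cytosolic aminoacyl-tRNA synthetase genes rose in 7 and fell in 1 of 20, by at most 0.39 (Gars). That count rests on all 6 libraries: it was 3, 2 and 4 without S1, S2 and S3, and 2, 1 and 4 without T1, T2 and T3, and the fallen Qars lost its call without T2. Chaperone and unfolded protein response genes of the endoplasmic reticulum rose in 1 and fell in 4 of 25, 20% called (2 fell without T1 or T2). The main chaperone gene of that compartment, Hspa5, stood at -0.04.

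Heat shock genes rose in 7 and fell in 2 of 34, a share of 26.5% called against 28.9% of all genes, with Bag2 at 1.03, the cardiac small heat shock gene Hspb7 at 0.81 and Hsp90aa1 at 0.76. Without S3, 11 rose and 1 fell, and 1 fell without T1 or T2. The chaperonin that folds actin and tubulin (CCT) has 8 subunit genes, of which Cct3 (0.41), Cct6a (0.40) and Cct8 (0.28) rose, the last with a call in 1 of the 6 fits that left a library out. Proteasome subunit genes rose in 6 and fell in 1 of 38, below the share of all genes, and Psma8, which was at or below 0 in all sham libraries, is 1 of the 6. The catalytic subunit gene Psmb10 rose by 1.49 (SE 0.12). Without S2 or T2 the number that rose was 2, and the fall of Psmc3 held in 1 of the 6 fits with a library left out.

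Of 39 tested genes for import, mitochondrial DNA and dynamics, 12 rose and 4 fell, 41% called against 28.9% of all genes. Timm8a1, a small chaperone of the intermembrane space, went from 1.07, 0.94 and 1.20 to 2.62, 2.44 and 2.25 (1.37, SE 0.16, adjusted p = 0.000358). Its relatives Timm10 (0.88) and Timm9 (0.80) rose too, as did the import channel gene Timm23 (0.63) and the outer membrane pore gene Tomm40 (0.43). The fallen members included Gabpa (-0.46), a transcription factor of nuclear genes for mitochondrial proteins, and Tomm20l (-2.29), and their count was 2 without T2. One of the risen members is listed under the symbol Tomm5Tomm5. Among muscle RNA-binding and splicing factor genes 12 rose and 3 fell of 27, 55.6% called. The risen ones included Srsf3 (0.78) and Hnrnpdl (0.59). Csdc2 fell by 2.27 and Rbfox1, a splicing regulator of mature muscle and neurons, by 1.24.

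**Figure D2:**
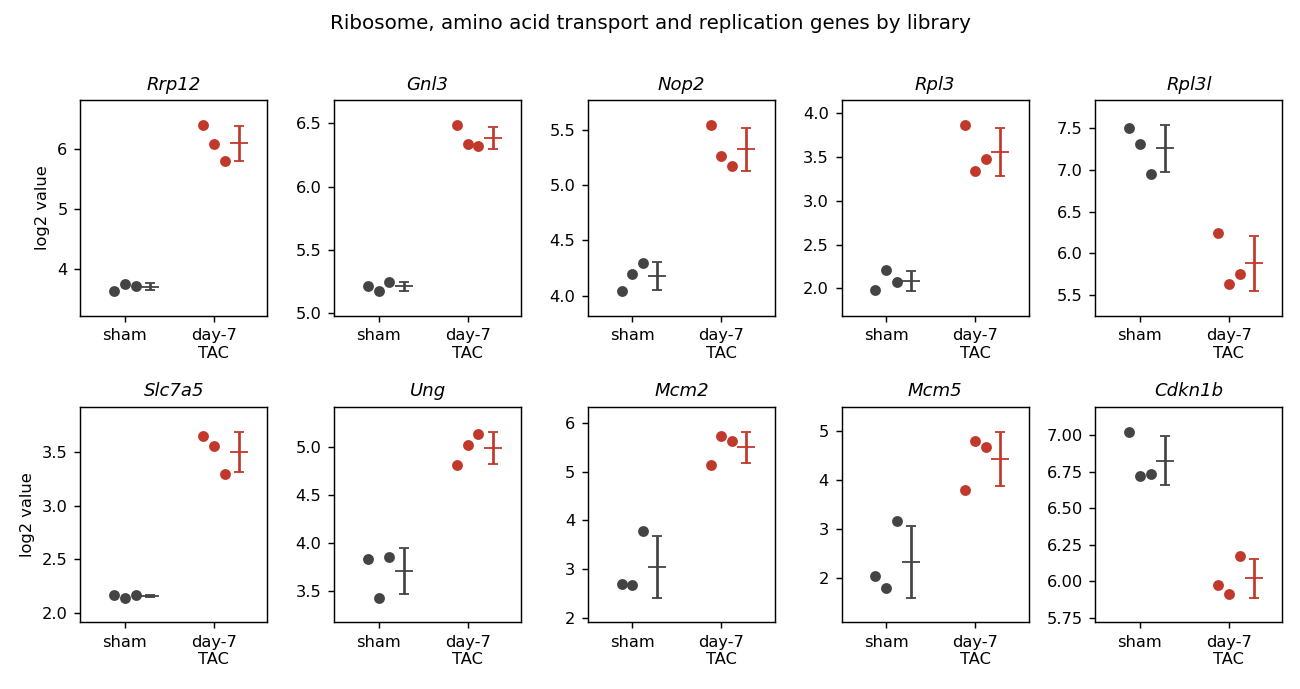
Deposited log2 values (vertical axis, a separate scale per gene) of 10 genes of ribosome assembly, ribosomal protein L3, amino acid transport, replication and cell-cycle arrest. Dots are the 3 libraries of each group, and the bar beside them is the mean with its SD. In all 10 panels the banded libraries and the sham libraries do not overlap, with Rpl3l and Cdkn1b lower and the other 8 higher after banding.

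DNA replication genes rose in 10 and fell in 1 of 50 tested, with a median of 0.60. The share called, 22%, is below the 28.9% of all genes. The helicase gene Mcm2, part of the ring that opens DNA at replication origins, stood at 2.70, 2.66 and 3.77 in sham and at 5.14, 5.72 and 5.63 with day-7 TAC (2.45, SE 0.31, adjusted p = 0.000509). Ung, the uracil glycosylase gene, went from 3.83, 3.44 and 3.86 to 4.81, 5.01 and 5.13 (1.28, SE 0.14). Mcm5 stood at 2.03, 1.8 and 3.16 against 3.78, 4.80 and 4.67, so that S3 was the highest of its group and T1 the lowest of its own. Of the 50 members 46 lay above 0, with 20 called higher without T1, and 6, 6, 5 and 6 without S1, S2, T2 and T3. A fit on the 6 libraries alone called 16. The fall of Rfc1 was lost without S1 or T1.

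E2F factors switch on replication genes at the entry into S phase, and E2f1 was itself 1.63 higher, a rise that passed in 2 of the 6 fits with a library left out. Their site was searched in the forms TTTCCCGC and TTTGGCGC, in the same windows and on both strands. A match stood in 4 of the 10 risen members (40%), namely Mcm3, Mcm5, Mcm6 and Mcm7, and in 3.35% of the 10368 tested genes with a promoter. The members that were not called held the forms too: each form stood in 6 of the 29 with a promoter (20.7%), against 2 and 3 of the 10 risen ones. In Mcm3 both matches lay after the start. The other 3 are shown as 100 bases on the gene's strand with a match in capitals: Mcm5 (chr8:75109314-75109413, plus strand, at -149), Mcm6 (chr1:128359762-128359861, minus strand, at -110) and Mcm7 (chr5:138171995-138172094, minus strand, at -165).
Mcm5: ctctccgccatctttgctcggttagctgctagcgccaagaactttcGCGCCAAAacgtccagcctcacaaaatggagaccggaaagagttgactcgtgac
Mcm6: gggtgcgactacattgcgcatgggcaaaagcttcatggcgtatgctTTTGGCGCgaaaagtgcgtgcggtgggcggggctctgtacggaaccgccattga
Mcm7: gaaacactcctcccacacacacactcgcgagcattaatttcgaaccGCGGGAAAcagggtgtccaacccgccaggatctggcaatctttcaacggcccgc
The site shown stands on the gene's own strand in Mcm6 and on the opposite strand in Mcm5 and Mcm7. Mcm6 holds another match at -47, outside the bases shown. Mcm6 rose by 1.26 and Mcm7 by 0.75, with calls in 3 and 1 of the 6 fits that left a library out.

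Few genes of mitosis passed, 7.14% against 28.9% of all genes. Of 42 tested, Cenpa (1.03) and Cenpk (1.78) rose and Cenpf fell (-2.65), and 10 of the 42 lay above 0. The proliferation marker gene Mki67 varied widely, at 5.70, 4.50 and 6.04 in sham and 3.34, 6.07 and 4.93 with day-7 TAC. Cenpk lost its call without S1 or S2, without T2 or T3, in the voom fit and in the fit with no intensity trend. Among cell-cycle inhibitor and p53 target genes 6 rose and 7 fell of 27, 48.1% called. Cdkn1b, which encodes the cyclin-dependent kinase inhibitor p27, went from 7.02, 6.72 and 6.74 to 5.98, 5.92 and 6.17 (-0.81, SE 0.11, adjusted p = 0.000743). The pocket protein gene Rbl2 fell by 0.72, while the stress gene Gadd45g rose by 1.52, the cyclin gene Ccnd2 by 1.16 and Phlda3 by 1.05. The number that fell was 4 without S1, T1 or T2.

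Genes for muscle ubiquitin ligases and their Kelch and ASB adaptors fell in 20 and rose in 3 of 35, against 15.1% lower among all genes. Ubiquitin ligases mark proteins for breakdown, and in muscle several of them are tied to wasting. Asb15 lies on chromosome 6 from 24528144 to 24573164. It stood at 6.96, 6.80 and 6.47 in sham and at 3.51, 3.71 and 4.21 with day-7 TAC, a 7.64-fold fall (-2.93, SE 0.22, adjusted p = 6.05e-05). Fbxo32, which encodes the ligase atrogin-1, went from 8.02, 7.48 and 7.50 to 5.78, 5.99 and 6.08 (-1.71, SE 0.14, adjusted p = 8.25e-05). Trim63, which encodes the other classic ligase of muscle wasting, MuRF1, stood at 9.11, 8.65 and 8.45 against 8.08, 8.42 and 8.33 and did not pass (-0.46, adjusted p = 0.0659). Klhl38 (-2.85), Klhl33 (-2.20), Asb5 (-1.42), Asb14 (-1.36), Asb4 (-1.27) and Asb18 (-1.21) fell as well. The list did not move as a block: Klhl34 went from 1.40, 0.75 and 0.82 to 3.51, 3.40 and 3.17, a 5.16-fold rise (2.37, SE 0.21), and Klhl40, which stabilizes thin filaments, rose by 0.74. Of the 6 fits that left a library out, each called 16 to 21 members lower.

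Autophagy and lysosome genes fell in 11 of 32, and none rose, 34.4% called against 28.9% of all genes. Foxo3, a transcription factor that drives both autophagy and atrogin-1 in muscle, went from 7.65, 7.16 and 7.25 to 5.93, 6.11 and 6.16 (-1.29, SE 0.14, adjusted p = 0.000217). Its relative Foxo4 fell by 0.91 and Foxo1 stood at -0.27. The autophagy initiation genes Atg14 (-0.59), Ulk2 (-0.35) and Ulk1 (-0.33) and the mitophagy receptor gene Bnip3l (-0.51) fell. Tfeb, which governs lysosome genes, and the lysosomal protease genes Ctsd (-0.04), Ctsb (-0.11) and Ctsl (-0.09) did not pass. Without T2, 7 members fell.

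Genes that feed and run the citric acid cycle fell in 17 and rose in 2 of 34 (median -0.26). The share called was 55.9%, against 28.9% of all genes. The changes were small and regular. Mdh2, malate dehydrogenase, stood at 10.33, 10.14 and 10.23 in sham and at 9.63, 9.83 and 9.70 with day-7 TAC (-0.52, SE 0.08). Citrate synthase (Cs) fell by 0.49, and Pdp1, the phosphatase that switches pyruvate dehydrogenase on, by 0.65. Its opponents split, since the kinase gene Pdk2 fell (-0.60) and Pdk3 rose (0.46), while the call of Pdk4 (-0.77) held in 1 of the 6 fits with a library left out. The rise of Mpc1 was lost without S1, S2, T2 or T3.

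Of 25 genes for the breakdown of branched-chain amino acids and the use of ketone bodies 12 fell and none rose. The share called was 48%, against 28.9% of all genes. Ppm1k, the phosphatase that activates branched-chain ketoacid dehydrogenase, went from 6.72, 6.72 and 6.48 to 4.90, 4.85 and 5.15, a 3.19-fold fall (-1.67, SE 0.13, adjusted p = 7.55e-05). The enzyme genes Aldh6a1 (-0.90), Mccc2 (-0.62), Bcat2 (-0.58) and Ivd (-0.55) fell along the same route. The kinase gene that opposes Ppm1k, Bckdk, stood at 0.05. The ketone genes Bdh1 (0.86) and Oxct1 (0.04) did not pass. Between 10 and 12 members fell in each fit with a library left out.

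Lipid storage and synthesis genes fell in 13 and rose in 5 of 33, 54.5% called against 28.9% of all genes. Acacb, the acetyl-CoA carboxylase whose product restrains fat entry into mitochondria, fell by 0.90 (SE 0.10). The lipase genes Pnpla3 (-1.78) and Pnpla2 (-0.91), the lipid droplet coat genes Plin3 (-0.84) and Plin2 (-0.72), and Lpl (-0.57) fell as well. Mlxipl, which encodes the sugar-sensing transcription factor ChREBP, rose from 5.24, 4.96 and 5.16 to 5.96, 6.16 and 6.10 (0.95, SE 0.12). The count of fallen members was 6, 7 and 8 without S1, T2 and T3, and 3 rose without S2, T2 or T3.

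Glycogen genes moved both ways. The branching enzyme gene Gbe1 went from 5.71, 5.63 and 5.78 to 6.40, 6.45 and 6.42 (0.72, SE 0.07, adjusted p = 0.000148). The muscle phosphorylase gene Pygm (-0.50), the brain form Pygb (-0.50), the phosphorylase kinase subunit gene Phkg1 (-2.84) and the glycogen-targeting subunit gene Ppp1r3a (-1.0) fell. In all, 5 of 24 rose and 8 fell, 54.2% called against 28.9% of all genes, and 3 rose without S1, T2 or T3. The synthase gene Gys1 stood at 0.03.

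Glycolysis genes rose in 7 and fell in 4 of 25, 44% called against 28.9% of all genes. Slc16a3, at or below 0 in all sham libraries, was among the 7. The platelet phosphofructokinase gene Pfkp rose by 0.71 and the muscle form Pfkm fell by 0.37. Pgam1 went from 2.63, 2.49 and 2.57 to 3.84, 3.79 and 3.68 (1.21, SE 0.12), while the muscle form Pgam2 did not pass (0.18). Pgam1 has near-identical copies in the genome, so its reads are uncertain. The lactate dehydrogenase gene Ldhb fell by 0.47 and Ldha stood at 0.09. The glucose carrier gene Slc2a12 fell by 1.03 (SE 0.09), Slc2a1 rose by 0.64 and the insulin-responsive Slc2a4 stood at -0.11. Slc2a1 lost its call in 5 of the 8 other settings. Of 26 hypoxia-inducible factor targets 7 rose, among them Ankrd37 (1.12) and Pgk1 (0.68), and 2 fell, Stc2 and Mxi1. The share called was 34.6%, against 28.9% of all genes. Mxi1 lost its call without S1, S2, T2 or T3 and with no intensity trend, and 4 fell without S3.

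Cholesterol genes rose in 5 and fell in 2 of 22, 31.8% called against 28.9% of all genes. Sqle, the squalene epoxidase, went from -0.08, 0.49 and 0.74 to 1.93, 2.23 and 1.75 (1.58, SE 0.27, adjusted p = 0.00210). Fdft1, the first step committed to sterols, fell by 0.93. The count of risen members was 3 without S1, S2 or T2, and Ebp, the other fallen member, lost its call in all 6 fits with a library left out. Oxidant defence genes rose in 3 and fell in 8 of 30, 36.7% called. The glutathione synthesis gene Gclc rose by 0.78 and Srxn1 by 0.75, while Ucp3 (-1.58), Gstp1 (-0.90), Txnip (-0.89), Gsta4 (-0.69) and the catalase gene Cat (-0.48) fell. The number that fell was 5 without S1 or T3 and with no intensity trend.

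**Figure D3:**
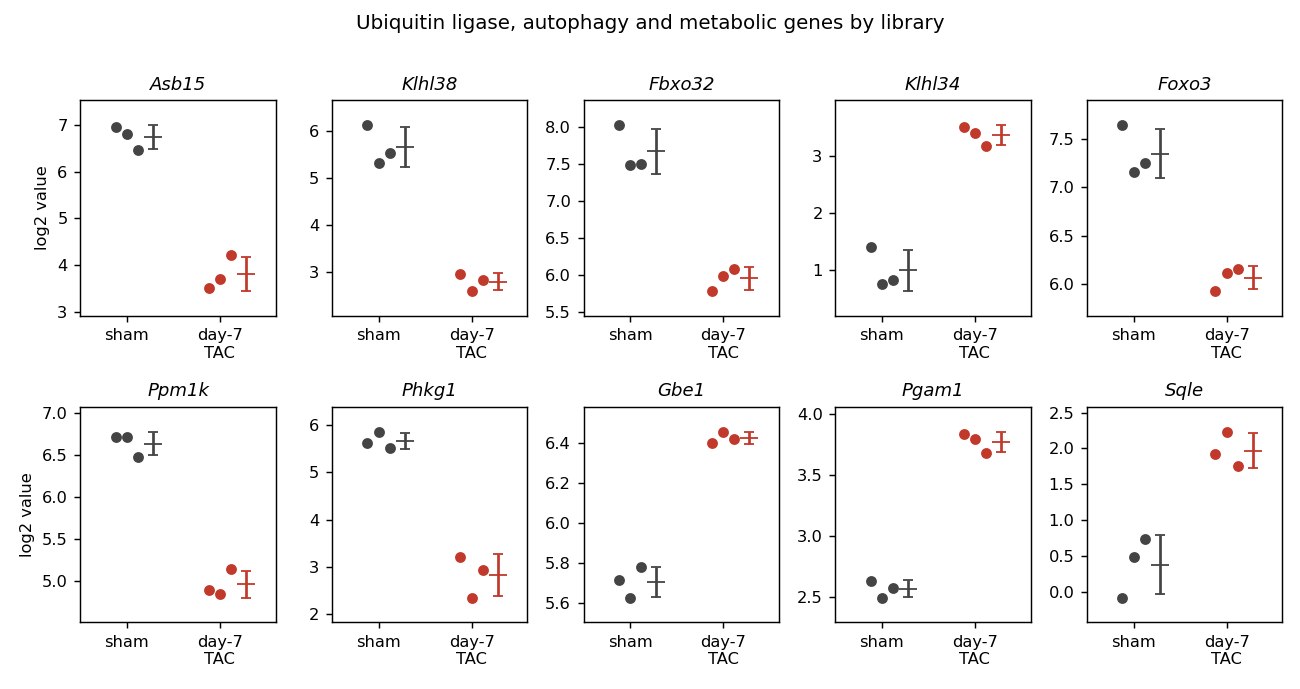
Deposited log2 values (vertical axis, a separate scale per gene) of 10 genes of ubiquitin ligation, autophagy, glycogen, glycolysis and amino acid or sterol metabolism. Dots are the 3 libraries of each group, and the bar beside them is the mean with its SD. Klhl34, Gbe1, Pgam1 and Sqle were higher and the other 6 lower after banding, with no overlap of the groups.

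Cytoskeleton genes rose in 22 of 48 and none fell (median 0.44), against 13.8% higher among all genes. Tubulin genes took part: Tubb2b went from 1.14, 1.28 and 1.69 to 3.00, 4.01 and 3.50 (2.14, SE 0.41), Tubb2a from 3.33, 3.21 and 3.44 to 4.38, 5.23 and 4.89 (1.51, SE 0.24), and Tubb6 rose by 1.44. Tubulin genes are near-identical in sequence, so reads may be shared among them. The actin-elongation gene Enah rose by 1.01, smooth muscle alpha-actin (Acta2) by 1.08 and the non-muscle myosin gene Myh10 by 0.77. Krt18, a keratin of simple epithelia, went from 0.20, 0.13 and -0.94 to 3.85, 3.44 and 3.38 (3.76, SE 0.45). Its reads numbered 10 to 28 in sham and 208 to 345 after banding. Vim (-0.06) and Stmn1 (-0.02) did not pass.

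Z-disc and costamere genes, which anchor thin filaments and sense stretch, rose in 15 and fell in 3 of 32. The share called was 56.2%, against 28.9% of all genes. Synpo2l, which bundles actin at the Z-disc, stood at 8.81, 8.79 and 8.76 in sham and at 10.01, 9.94 and 9.98 with day-7 TAC, a 2.28-fold rise with hardly any spread within groups (1.19, SE 0.09, adjusted p = 7.07e-05). Synpo (1.27), Myot (1.20), Pdlim3 (1.05) and filamin C (Flnc, 0.95) rose, and Pdlim4 fell (-1.01). The number risen was 15 or 16 in each of the 6 fits with a library left out. Other Z-disc genes did not pass: Actn2 stood at 0.14, Ldb3 at 0.22, Csrp3 at 0.20 and Vcl at 0.05.

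Contractile protein isoform genes rose in 7 and fell in 6 of 33, 39.4% called against 28.9% of all genes. Mybpc2, the fast skeletal form of myosin-binding protein C, went from 4.54, 4.48 and 4.35 to 6.19, 6.05 and 6.44, a 3.41-fold rise (1.77, SE 0.11, adjusted p = 2.04e-05), while the cardiac form Mybpc3 stood at 0.10. Beta-tropomyosin (Tpm2) went from 5.45, 5.45 and 5.77 to 7.49, 6.87 and 6.99 (1.56, SE 0.26). The fast troponin genes parted: Tnnt3 rose by 1.12 and Tnni2 fell by 1.65. The myosin light chain kinase gene of the heart, Mylk3, fell from 10.41, 10.49 and 10.14 to 9.11, 9.13 and 9.04 (-1.26, SE 0.13). The cardiac troponin T gene Tnnt2 fell by 0.50, a call that held in 1 of the 6 fits with a library left out. Without T3, 3 members fell. Intercalated disc genes fell in 7 and rose in 1 of 18, 44.4% called, led by the desmosome genes Dsg2 (-0.84) and Jup (-0.41). That count was 3, 3 and 4 without S2, T2 and T3, and the rise of Pkp4 held in 0 of those 6 fits.

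Calcium and calcineurin genes fell in 11 and rose in 2 of 43, 30.2% called against 28.9% of all genes. Rcan1, whose transcript is induced by calcineurin and whose protein restrains it, went from 6.33, 6.29 and 6.33 to 7.83, 8.05 and 7.95 (1.63, SE 0.24, adjusted p = 0.00104). The calcineurin effector gene Nfatc2 fell by 0.83, the inositol trisphosphate receptor genes Itpr2 and Itpr1 by 0.61 and 0.60, and the channel subunit gene Cacna2d3 by 1.30. The sarcoplasmic calcium-binding gene Srl rose by 0.42, while the pump gene Atp2a2 stood at -0.30 and the channel gene Cacna1c at -0.23. With equal totals 7 rose, with quantile normalization 6 and with the 6 libraries alone 4.

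Of 50 potassium channel genes 12 fell and 2 rose (median -0.32), 28% called against 28.9% of all genes. Inward rectifier genes, whose channels help to hold the resting potential, were among those that fell: Kcnj12 by 0.90, Kcnj2 by 0.88 and the acetylcholine-gated Kcnj5 by 1.06. Kcnj5 stood at 7.68, 7.93 and 7.64 in sham and at 7.05, 6.50 and 6.52 with day-7 TAC. The transient outward channel gene Kcnd3 fell by 0.92 and Kcnip3 by 1.0, while Kcnip2 (-0.35) and Kcnq1 (-0.10) did not pass. One of the risen members, Kcnq1ot1 (0.76), is an RNA antisense to Kcnq1 and no channel, and without strand-aware counting its reads cannot be told from those of Kcnq1. Among sodium, pacemaker, TRP, chloride and mechanically gated channel genes 28.6% were called: 8 of 35 fell, led by Scn7a (-1.18, SE 0.12), and 2 rose, the stretch-activated Piezo1 (0.41) and Piezo2 (0.81). The pacemaker gene Hcn4 (-1.04, adjusted p = 0.104) did not pass. The number of falls was 4 without S2 and 3 without T2, and the call of Piezo2 held in 1 of the 6 fits. Trpc4ap, an adaptor that is no channel, is 1 of the 8.

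Of 30 vasoactive genes 9 fell and 4 rose, 43.3% called against 28.9% of all genes. Receptors for hormones and transmitters were among the fallen. The angiotensin receptor gene Agtr1a, on chromosome 13 from 30336441 to 30382867, went from 5.66, 5.89 and 5.75 to 4.62, 4.58 and 4.57 (-1.18, SE 0.10, adjusted p = 7.85e-05). The muscarinic receptor gene Chrm2 went from 8.37, 8.55 and 8.41 to 7.28, 7.31 and 7.55 (-1.06, SE 0.11). The natriuretic peptide clearance receptor gene Npr3 (-1.08) and the alpha-adrenergic receptor gene Adra1b (-0.99) fell, and the beta-adrenergic receptor gene Adrb1 (-0.16) did not pass. On the ligand side Edn3 stood at 3 to 8 sham reads and 23 to 32 reads after banding (2.76, SE 0.50). It is 1 of the 4 risen and was at or below 0 in all sham libraries, and its call was lost in the voom fit (adjusted p = 0.0678). Edn1 stood at 0.10. The prostacyclin synthase gene Ptgis (0.77) and the prostaglandin D synthase gene Ptgds (1.13) rose.

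Cyclic AMP carries the beta-adrenergic signal and phosphodiesterases destroy it. Genes of this pathway fell in 12 and rose in 4 of 37, 43.2% called against 28.9% of all genes. The list's phosphodiesterase genes moved both ways. Pde4d stood at 6.30, 6.86 and 6.14 in sham and at 5.40, 5.29 and 5.05 with day-7 TAC (-1.19, SE 0.25), Pde4a fell by 0.99, Pde1c by 0.80 and Pde3a by 0.49. Pde8a (0.36) and Pde10a (0.36) rose, the former with no call without T3 and the latter with a call in 0 of the 6 fits with a library left out. The cyclase genes Adcy6 (-0.70) and Adcy9 (-0.82) fell on the side of synthesis, and Adcy5 stood at -0.16. Rgs2, a brake on G protein signalling, fell by 1.09, and Sik1, a kinase gene that cyclic AMP induces, rose by 0.62 (SE 0.09). The number risen was 2 without T1, T2 or T3 (each left out in turn).

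Growth factor ligands and receptors moved both ways, 12 higher and 10 lower of 52, 42.3% called against 28.9% of all genes. Among the 12 are Fgf6 and Ereg, which were at or below 0 in all sham libraries. Hbegf, which encodes a ligand of the EGF receptor, went from 4.14, 4.24 and 4.64 to 6.32, 5.71 and 6.09 (1.70, SE 0.17, adjusted p = 0.000178), and Btc, the gene of another such ligand, rose by 1.07. In the neuregulin branch of the same receptor family, Nrg1 fell by 1.79 and the receptor gene Erbb3 by 0.51, with Nrg1 at 45 to 70 sham reads and 10 to 31 reads after banding. Angpt1, the ligand that keeps vessels quiescent through the receptor Tek, went from 4.0, 4.39 and 4.38 to 2.28, 2.29 and 2.16, a 4.04-fold fall (-2.02, SE 0.14, adjusted p = 3.89e-05). Fgf1 (-0.81) and Fgf9 (-0.97) fell, while Fgf6 stood at 2 to 8 reads in sham and 32 to 38 after banding (3.04, SE 0.66), a call lost with a pseudocount of 1 (adjusted p = 0.0628). The list held 7, 7 and 6 risen members without S1, S2 and T2, and 6 fallen ones without the last of these. ERK feedback genes rose in 2 and fell in 4 of 18, 33.3% called against 28.9% of all genes, with Dusp26 at 1.5, Rasd1 at -1.34 and Dusp1 at -0.66. Of these counts 1 rose without S1, T1 or T2, and 2 fell without S2 or T3.

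TGF-beta, activin and BMP genes rose in 9 and fell in 2 of 37, 29.7% called against 28.9% of all genes. Inhba, which encodes the activin A subunit, went from 0.68, 1.55 and 1.76 to 3.89, 3.21 and 2.89 (2.0, SE 0.30, adjusted p = 0.00123), and the activin-binding inhibitor gene Fstl3 from 2.0, 1.89 and 2.21 to 3.90, 3.62 and 3.50 (1.64, SE 0.21). Bmp7 rose by 1.38 and Tgfb2 by 0.79. The stress-induced Gdf15, 1 of the 9 and at or below 0 in all sham libraries, stood at 5 to 11 sham reads and 36 to 87 reads after banding (3.13). The co-receptor gene Tgfbr3 (-1.12) and Ltbp1 (-0.69) fell, and 4 fell without S3. The intracellular targets Id1 (-0.02), Id3 (0.03) and Smad7 (0.15) did not pass. Among Wnt pathway genes 5 of 27 rose and 3 fell, 29.6% called: Nkd2, an inhibitor of the pathway, went from 2.50, 2.59 and 2.62 to 5.05, 4.79 and 4.60 (2.25, SE 0.24), Wnt5b rose by 1.33 and Fzd2 by 1.02, Wnt5a fell by 0.88, and the target Axin2 stood at -0.47. Without S1, S2 or T1 the number risen was 3, and 1 fell without S1 or S2, T2 or T3, or with equal totals. YAP and TEAD genes rose in 5 and fell in 3 of 22, 36.4% called, with Vgll3 at 0.69 and the classic targets Ctgf (0.30) and Cyr61 (0.26) not passing. Here 2, 2, 3 and 2 rose without S1 and S3 and T2 and T3, and 0 fell without S2 or T2, 1 without T1 or T3.

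Cytokine and acute inflammatory genes rose in 10 of the 28 that passed the filter, and none fell (1 fell without S1). The share called was 35.7%, against 28.9% of all genes. Tnfrsf12a, the receptor of the cytokine TWEAK, went from 5.19, 5.01 and 5.29 to 7.44, 7.39 and 7.17, a 4.51-fold rise (2.17, SE 0.13, adjusted p = 1.5e-05). The oncostatin M receptor gene Osmr rose by 0.50, Stat3 by 0.56, the interleukin 1 receptor gene Il1r1 by 0.44, and the endothelial adhesion gene Sele stood at 13 to 25 sham reads and 53 to 61 after banding (1.66). Il6, Il1b and Tnf lay below the filter. The list includes 3 genes at or below 0 in all sham libraries, of which Sele and Lcn2 are among the 10 risen, and neutrophil markers were higher in the same libraries (given below). Without T2, 6 rose. Interferon-response genes rose in 0 and fell in 2 of 25, 8% called against 28.9% of all genes. Those that fell were Trim30a (-0.66) and Rsad2 (-0.77). Their number was 1 without S1, 0 without S2 or T3, and 5 without S3.

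**Figure D4:**
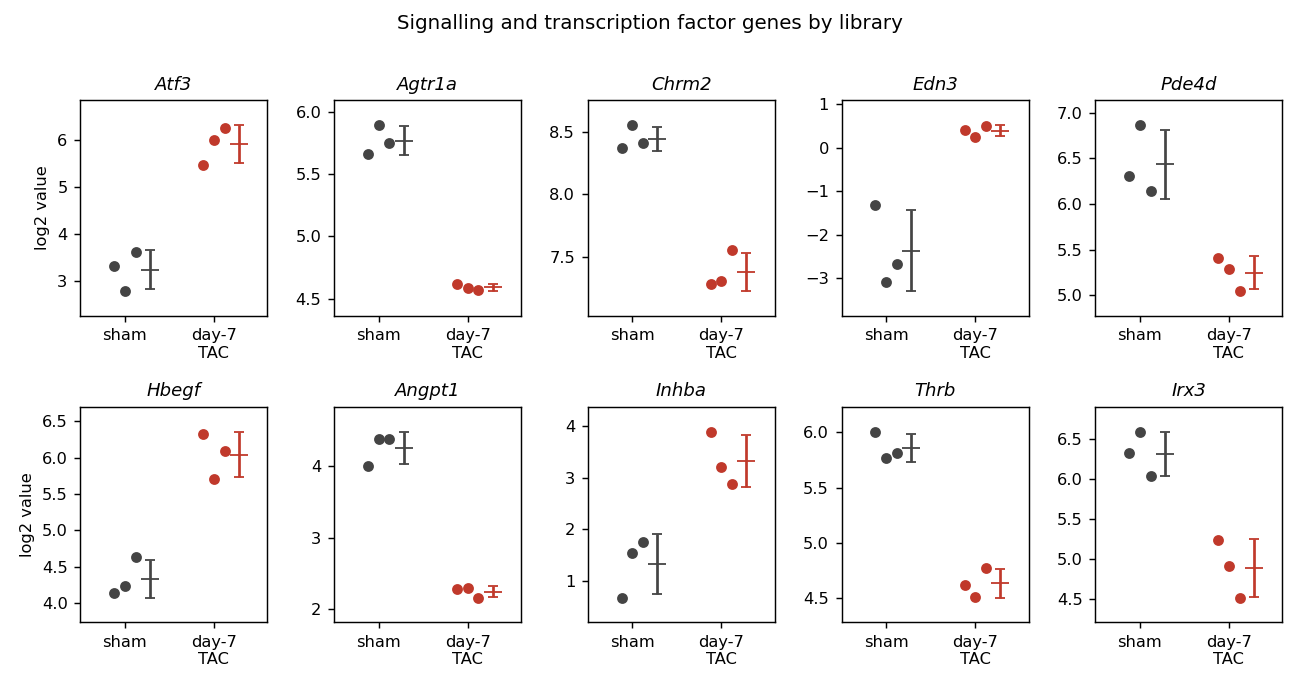
Deposited log2 values (vertical axis, a separate scale per gene) of 10 receptor, ligand, phosphodiesterase and transcription factor genes. Dots are the 3 libraries of each group, and the bar beside them is the mean with its SD. Atf3, Edn3, Hbegf and Inhba were higher and the other 6 lower after banding, with no overlap of the groups, which for Edn3 was favoured by how it entered the test.

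Immediate-early genes, which cells switch on within minutes of a stimulus without new protein, rose in 8 and fell in 4 of 26. The share called was 46.2%, against 28.9% of all genes. Fosb and Egr2, which are among the 8, were at or below 0 in all sham libraries. In the NR4A family of orphan receptors Nr4a3 (4.18, SE 0.30) and Nr4a1 (0.89, SE 0.14) rose and Nr4a2 stood at 0.02, with sham at 2.18, 2.38 and 2.23 and day-7 TAC at 2.54, 2.18 and 2.13. Atf3, a stress-induced repressor, went from 3.32, 2.80 and 3.61 to 5.47, 6.0 and 6.26 (2.67, SE 0.28, adjusted p = 0.000208). In the FOS family Fosb stood at 5 to 12 sham reads and 21 to 24 reads after banding (1.66), while Fos stood at 0.11 and the partners Jun (0.06) and Junb (0.24) did not pass. Egr2 stood at 7 to 19 sham reads and 41 to 48 after banding (1.73), a call lost in the voom fit (adjusted p = 0.0632), and Egr1 stood at 0.19. Klf10 fell by 0.55. The number of falls was 2, 2, 2 and 1 without S1, S2, T2 and T3, 2 with equal totals and 1 with no intensity trend.

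Cardiac transcription factor and nuclear receptor genes fell in 16 and rose in 3 of 38, 50% called against 28.9% of all genes. Thrb, a thyroid hormone receptor gene, went from 6.0, 5.76 and 5.81 to 4.62, 4.51 and 4.77 (-1.22, SE 0.13, adjusted p = 0.000257), and its partner genes Rxra and Rxrg fell by 0.71 and 0.64. Irx3, a factor of the ventricular conduction system, went from 6.32, 6.58 and 6.04 to 5.23, 4.91 and 4.52 (-1.43, SE 0.20). Irx5 (-0.92), Tbx5 (-1.26) and Prox1 (-0.87) fell, and Ppargc1a rose (0.78). Nkx2-5 fell by 0.43, but its call was lost without S1, S2, T2 or T3. With a library left out, 9 genes fell without S2 and 10 without T3. The number risen was 1 without S3, T1 or T2, and 1 with no intensity trend.

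Genes that glucocorticoids induce fell in 10 and rose in 1 of 26, and circadian clock genes rose in 3 and fell in 5 of 19. The shares called were 42.3% and 42.1%, against 28.9% of all genes. Klf15 stood at 6.33, 5.45 and 5.12 in sham and at 4.18, 4.13 and 4.26 with day-7 TAC (-1.44, SE 0.26). Per1 stood at 6.46, 5.32 and 5.21 against 4.59, 4.34 and 4.07 (-1.33, SE 0.29). In both genes S1 was the highest, well above the other sham libraries. Klf9 fell by 0.98 and the clock output gene Hlf by 1.21, while the repressor genes Cry1 (0.77), Bhlhe41 (0.90) and Bhlhe40 (0.66) rose. Per2 (0.02) and Nr1d1 (-0.15) did not pass, nor did Fkbp5 (0.42), a standard glucocorticoid target. The labels used here give no hour of harvest, and its part in these values was not tested. Of clock genes 3 fell without T1, T2 or T3 (each left out in turn). The risen member of the first list, Lcn2, was at or below 0 in all sham libraries, is also a neutrophil marker and held its call in 2 of the 6 fits, and without S1 that list held 3 risen members.

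Imprinted and fetal growth genes rose in 7 and fell in 2 of 22, 40.9% called against 28.9% of all genes. The noncoding RNA Meg3 rose by 0.86 (SE 0.12), the carrier gene Slc38a4 by 0.63 and the RNA-binding gene Igf2bp2 by 1.09, while Igf2 (-0.28), H19 (0.05) and Dlk1 (0.30) did not pass. The falls of Cdkn1c and Peg3 were lost together without S1 or T1, and 1 was left without S2 or T3 and with equal totals, quantile normalization or no intensity trend.

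Genes listed as matrix metalloproteinases, ADAMs and TIMPs moved both ways. Of the 47 tested 14 rose, with Mmp8, at or below 0 in all sham libraries, among them, and 8 fell. The share called was 46.8%, against 28.9% of all genes. Adamtsl5, a protein of the ADAMTS-like family on chromosome 10 from 80339110 to 80348412, went from 5.34, 5.40 and 5.45 to 6.96, 6.86 and 6.94 (1.53, SE 0.07, adjusted p = 5.62e-06). Mmp14, the membrane-type collagenase, went from 6.21, 6.18 and 6.20 to 6.96, 6.90 and 6.87 (0.71, SE 0.08), and Adamts8 rose by 2.11. Adamtsl4 (-1.26), Adamts7 (-1.14) and Adamts5 (-0.62) fell. The ADAMTS-like Adamtsl5 and Adamtsl4 are counted with the list but are no proteases. Of 37 collagen chain genes 7 rose and 2 fell, a share of 24.3% called against 28.9% of all genes, with Col11a1 at 1.95, Col27a1 at 0.90 and Col28a1 at -2.38, and with the fibrillar Col1a2 (0.27) and Col3a1 (0.23) not passing. The number of risen collagen genes was 3, 3 and 14 without S1, S2 and S3, and 4, 3 and 4 without T1, T2 and T3, and 11 with the 6 libraries alone. Other matrix genes rose in 12 and fell in 1 of 42, 31% called, the risen ones including Spp1, which was at or below 0 in all sham libraries, with Nov at 1.05, Thbs3 at 0.56 and Efemp1 at -1.37. Of these, 6 and 5 rose without S1 and S2, and 2 fell without S3 and in the voom fit. Guidance genes, the semaphorins, ephrins and Slit proteins, rose in 5 and fell in 4 of 50, 18% called, with Sema3b at 0.79, Sema3a at -0.82 and Epha7 at -0.75. There 3, 3, 2 and 3 rose without S1 and S2 and T2 and T3, and 7 fell with the 6 libraries alone.

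Markers of the cell types a ventricle sample can hold were summed on the linear scale in each library. The 12 ventricular cardiomyocyte markers summed to 139000 to 148000 in sham and to 122000 to 131000 after banding, so the labelled tissue's own markers were high in every library. Of them 3 fell and 1 rose, 33.3% called against 28.9% of all genes, with 0 fallen without S1, S2, T2 or T3 and 1 without T1. Skeletal muscle markers were near their floor in both groups, at 9.93 to 10.6 against 9.93 to 10.5, and of the 3 of 11 that passed the filter 2 rose, 1 of them (Myh8) at or below 0 in all sham libraries, and 1 fell. Fibroblast markers summed to 4200 to 5460 and 4970 to 5590, and 0 of 12 were called by the limma fit (3 rose without S3). Pericyte and smooth muscle markers summed to 5000 to 5300 and 5080 to 5410, with 2 risen and 2 fallen of 15, 26.7% called. Atrial markers rose in sum from 2190 to 2410 in sham to 5690 to 8620, and Nppa, itself a load marker, is among them. Of the 12 tested 3 rose, Nppa (3.29), Clu (1.53) and Dkk3 (0.59, with no call without S1, S2 or T1), and 2 fell, Kcnj3 (-1.77) and Tbx5 (-1.26), with 6 fallen without T1. Of the 12, 41.7% were called and 4 lay above 0, and the median over all 12 was -0.29.

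Lymphatic endothelial markers fell in 3 of 6 (50% called), Reln (-1.19), Mmrn1 (-1.19) and Prox1. The sum of the lymphatic markers went from 221 to 243 down to 135 to 155. None rose, but 1 did without T3, with the stricter filter, with equal totals and with quantile normalization, and 2 of the 6 lay above 0. Schwann cell and neuron markers fell in 4 of 8, 50% called against 28.9% of all genes. The receptor gene Gfra3 went from 1.53, 1.23 and 1.20 to -0.19, -0.46 and 0.25 (-1.45, SE 0.25). Their sum was 48.1 to 50.5 in sham and 36.2 to 39.4 after banding, and 2 fell without T2, while 1 rose without S3. The axonal enzyme gene Dbh stood at 0.10. Of 17 endothelial markers 5 fell and 1 rose, 35.3% called against 28.9% of all genes. The rise was lost in 5 of the 6 fits with a library left out. Endothelial markers summed to 6110 to 7260 in sham and to 5260 to 5670 after banding. Of 20 macrophage markers 4 fell and 1 rose, 25% called against 28.9% of all genes. The scavenger receptor gene Cd163 went from 4.53, 4.56 and 4.60 to 2.91, 2.59 and 2.68 (-1.84, SE 0.22). F13a1 stood at -1.14, while Csf1r (-0.31) and Adgre1 (-0.14) did not pass. Here 2 fell without S3 or T3, and the rise of Itgam was lost without S1, S2, T1 or T2.

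Neutrophil markers were low in sham and higher in each banded library. Their sum was 3.07 to 5.64 in sham and 35.5 to 78.3 after banding, over 13 markers in the table. Of these 9 passed the filter, 8 of them at or below 0 in all sham libraries. The rise of those 8 was favoured by how they passed and is not taken as support. S100a8 went from 4 to 14 reads to 100 to 225 reads, and the granule protein genes Mpo and Camp lay below the filter. Lymphocyte markers summed to 8.34 to 13.1 and 11.2 to 16.5, with 0 of 5 called (2 rose without S2 and 1 without T3). Mast cell markers summed to 21.3 to 23.4 and 15 to 18.6, with Kit fallen (-0.49), a call lost without S2, S3 or T1. Epicardial markers summed to 46.7 to 61.9 and 71.1 to 102, with Aldh1a2 risen (1.13) of 3 tested, a call lost without S1, S2 or T2. Erythroid and platelet markers summed to 286 to 1020 and 363 to 427, with 0 of 6 called, and the highest value is that of S1. The 1 adipocyte marker tested, Pparg, stood at -0.24. What part these shifts have in the changes of other genes was not tested.

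**Figure D5:**
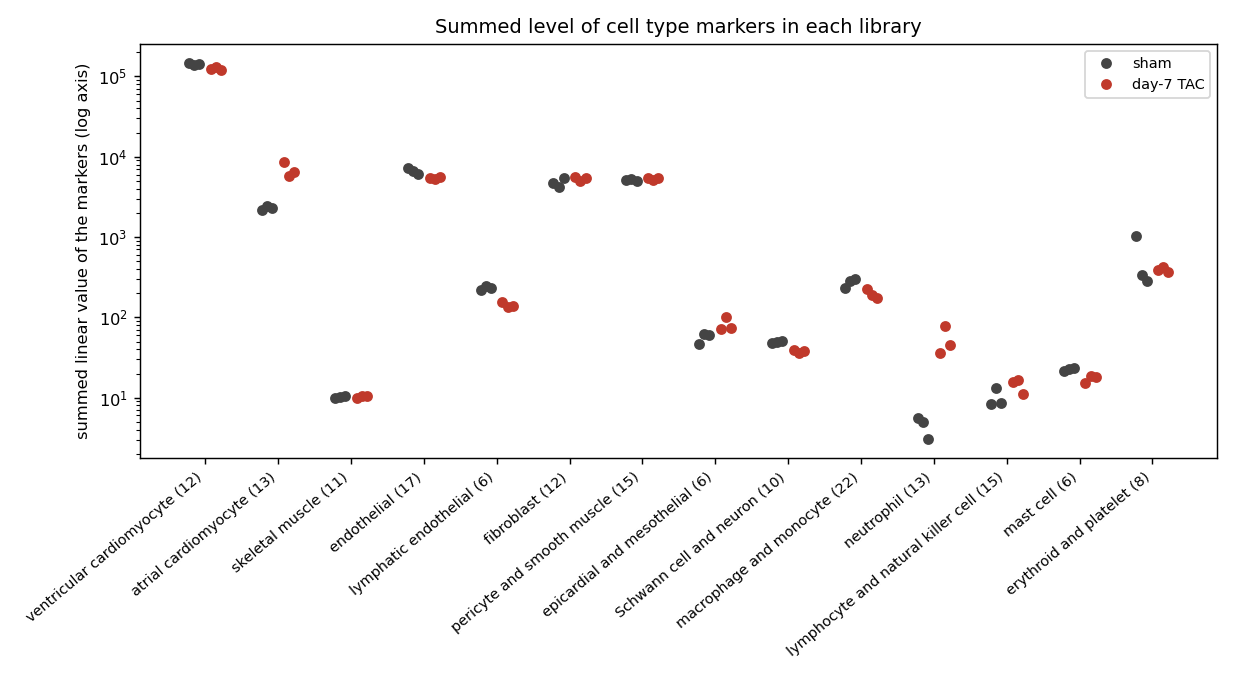
Summed linear value of the markers of 14 cell types (log vertical axis) in each library, with the number of markers in brackets. Black dots are the 3 sham libraries and red dots the 3 day-7 TAC libraries. Neutrophil markers stand at 3.07 to 5.64 in sham and at 35.5 to 78.3 after banding, and skeletal muscle markers at about 10 in both groups.

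Several of the changes with the smallest p-values belonged to none of these lists. Hdac9, a histone deacetylase that restrains the growth programme of muscle, lies on chromosome 12 from 34047580 to 34917095 and went from 6.45, 6.28 and 6.41 to 4.57, 4.35 and 4.64, a 3.62-fold fall (-1.86, SE 0.09, adjusted p = 5.62e-06). Dct, known as a pigment cell enzyme, rose from 25 to 38 reads to 280 to 423 (3.48, SE 0.18). The septin gene Sept6 rose by 1.35, the phosphatase gene Ppm1e by 1.42 and Bex1 by 2.44. Bex1 overlaps another gene on the opposite strand, and without strand-aware counting reads of the overlap cannot be assigned to either. Trabd2b, which encodes a protease that inactivates Wnt ligands, went from 7.34, 7.88 and 7.30 to 5.57, 5.18 and 5.25 (-2.17, SE 0.15, adjusted p = 4.48e-05). Rab3d, of the Rab family of secretion, fell by 1.90, Creg1 by 1.16 and Emp2 by 0.92, and Fign (-2.10) and Kif6 (-2.18) fell. All of these were called in each of the 6 fits that left a library out.

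Genes chosen from the lists were also set against TAC at postnatal day 1, in the same fit. That comparison shares the day-7 TAC libraries with the one above, and the banded mice differ both in age at surgery and in days under load. Of all genes tested 16.7% differed between the 2 banded groups. Of the 162 chosen genes 53 differed, 31 higher and 22 lower with day-7 TAC. They were chosen with earlier results of these data known, so their share cannot be set against that of all genes. Among genes described above, Atf3 was higher by 2.07 and Rpl3 by 0.81, and Asb15 (-1.39), Fbxo32 (-1.13) and Rpl3l (-0.94) were lower. Fos differed by -1.27 between the banded groups and did not pass against sham (0.11).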

How the data were processed

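Per the labels' protocols RNA of the left ventricle was sequenced, and the submitters' processing notes name Trim Galore, STAR, edgeR and the build mm10 without versions. Log2 values for 9 libraries were deposited by the authors, and the column names call them scaled by the trimmed mean of M-values (TMM). How they came to share a median was not tested. Of 16710 rows, 12 rows of 3 repeated symbols were left out. Per library, the linear values were whole multiples of 1 step (within 0.001 reads), from which reads were recovered. The deposited values were fitted with limma 3.58.1 (R 4.3.3) with an intensity trend, all 9 libraries in 1 model, for genes above 0 in at least 3 libraries, with Benjamini-Hochberg adjustment over 13712 genes. The script was tested on simulated data. A repeated column name shows the group of 2 sham columns, not which sample each is. Libraries of a group differed by more than counting error (chi-square per gene 10.3 to 23.6).

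Genes were named by rule: the 25 largest changes each way and the 10 smallest p-values of genes that passed, averaged 2 or more on the log2 scale and did not overlap between groups, up to 6 members of smallest p in each of 65 lists each way, and preset key genes. Other members given with values, mostly of lists' remaining changes, were chosen after their values were seen. Some genes that the rule selects are not reported here by name. Members and lists were chosen with earlier results of these data known. Gene positions are from GENCODE M21 and promoters from RefSeq (GRCm38.p6), for 10368 of the tested genes. Alternatives were the pseudocount, filters, scalings, fewer libraries, voom and the trend.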

Additional observations from a re-analysis of the deposited data

Results flagged for a closer look

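The genes below differed between TAC at day 7 and TAC at day 1 by the limma contrast of those groups, with a Benjamini-Hochberg adjusted p under 0.05 over all 13712 genes tested. Values are log2 differences, day-7 TAC minus day-1 TAC, n = 3 libraries in each group. Of the 162 chosen genes that were tested 53 differed, and those reported here are given by name. The mice banded on day 1 had carried the band for longer at the common harvest, so age at surgery and time under load cannot be told apart.

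Stress and signalling genes higher with day-7 TAC were Nr4a3 (2.60), Atf3 (2.07), Zbtb16 (1.86), Ctgf (1.07), Inhba (0.98), Rgs2 (0.95), Gadd45g (0.89), Tnfrsf12a (0.83) and Atf4 (0.32). Genes of muscle structure, channels and cardiac regulation in the same direction were Tnni1 (3.29), the natriuretic peptide convertase gene Corin (1.90), Kcne1 (1.46), Myom2 (1.13), the splicing regulator genes Rbm24 (0.70) and Rbm20 (0.64), Tbx20 (0.51) and Enah (0.46). Growth, ribosome and imprinted genes were Plagl1 (1.71), H19 (1.40), Igf2 (1.16), Slc7a1 (0.98), Igf2bp3 (0.95), Rpl3 (0.81), Nop56 (0.44) and the RNA polymerase I subunit gene Polr1b (0.40). Metabolic genes were Scd4 (2.70) and Ppargc1b (0.69). The neutrophil granule gene Ngp (2.14) and the protease inhibitor gene Timp4 (1.86) were higher too.

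Lower with day-7 TAC than with day-1 TAC were Cilp (-1.90), Col8a1 (-1.74), Timp1 (-0.67) and Col1a1 (-0.60), which encode matrix proteins or a protease inhibitor, while Ctgf and Timp4, given above, were higher. The macrophage genes Cd68 (-1.10) and Csf1r (-0.51) were lower too. The muscle ubiquitin genes Asb15 (-1.39), Fbxo32 (-1.13) and Klhl38 (-1.01) and the ribosomal protein gene Rpl3l (-0.94) were lower. Among metabolic genes Pnpla3 (-2.87), Bdh1 (-1.67), the oxygen sensor gene Egln3 (-1.39), the folate enzyme gene Mthfd2 (-1.16) and Pygm (-0.32) were lower. Bdh1 was at or below 0 in all sham libraries and entered the test only through banded ones, those of day-1 TAC among them. Its lower value with day-7 TAC was favoured by how it entered. Stress and growth signalling genes were Fos (-1.27), Hsph1 (-0.86), Spry4 (-0.85), Igf1 (-0.66), Dusp6 (-0.65) and Xbp1 (-0.35).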

How the results depend on the processing

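Leaving out 1 of the 6 libraries in turn gave 1178 to 1684 genes higher and 1395 to 1888 genes lower, against 1889 and 2073, and the lowest count of higher genes, 1178, came without T2. The 8 other settings (a pseudocount of 1, no filter, a stricter filter, equal totals, quantile normalization, the 6 libraries alone, limma voom on recovered reads, no intensity trend) gave 1682 to 2434 higher and 1642 to 2139 lower. The counts of genes that differed between day-7 and day-1 TAC, 53 among the chosen genes, lay between 36 and 55 without 1 sham or day-7 TAC library (day-1 TAC libraries were not left out) and between 39 and 54 in those settings other than the 6 libraries alone, which do not hold this contrast. Reversal was checked for the genes named by rule and the chosen genes only, and no fold change of a called gene among them reversed. No paired analysis was possible because 2 of the 3 sham columns carry the same replicate number, so the fit with a replicate block was not run. Depth limits genes at or near 0 on the log2 scale, where a few reads set the fold change, as in Edn3, Fgf6, Fosb, Egr2 and Gdf15.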

Other observations

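Some ribosomal protein genes varied between libraries within a group. Rpl26 had 36, 35 and 515 reads in the sham libraries and 985, 831 and 679 with day-7 TAC. Rps2 had 29, 52 and 744 reads in sham and 75, 618 and 665 with day-7 TAC, so that both groups hold a low and a high library. Both genes have near-identical processed copies, and what sets these values was not tested.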
